A study of Mus musculus with 10 samples.

Results

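Cadherins and protocadherins were described here across 10 single-nucleus RNA libraries of mouse brain. The genes were taken by symbol alone, as every Cdh or Pcdh symbol followed by a number and every symbol beginning with Pcdha, Pcdhb or Pcdhg. This gave 58 of the 23589 genes in the deposited table: 22 Cdh genes, 12 Pcdh genes with a number, 22 Pcdhb genes, and the single alpha and gamma symbols Pcdha2 and Pcdhga9.

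Cadherins are calcium-dependent adhesion proteins that bind cadherins on a neighbouring cell through repeated extracellular domains. Classical cadherins of type I and type II are tied to the actin cytoskeleton through beta- and alpha-catenin, and neurons express type II members in combinations that differ between cell types and help partners to find each other. Protocadherins lack the catenin-binding tail. The delta protocadherins are encoded by solitary genes and act in axon growth, cell sorting and synapse remodelling, whereas the clustered protocadherins give a neuron a molecular identity and allow its branches to avoid each other. The alpha and gamma clusters are arrays of alternative first exons joined to shared constant exons, and each beta gene stands by itself.

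The tissue was archived frozen hippocampus and cortex (dissected as prefrontal cortex) of C57BL/6 mice, and nuclei were sequenced by DroNc-seq. This method captures each nucleus with a barcoded bead in a droplet and counts RNA molecules by unique molecular identifiers (UMIs). The labels name no treatment, genotype, age or sex for these libraries. There were 5 libraries per region with title numbers 0 to 3, number 0 having a library a and a library b. The a and b libraries were summed, which gave 4 units per region, called unit 0 to unit 3 below. The series design names 4 mice but no label ties a number to a mouse. The p-values therefore set a difference only against the variation among these units, and that variation can be technical.

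In all 11624 nuclei were analysed, 5658 hippocampal and 5966 cortical, with 1443244 to 2600788 UMIs per library and a median of 643.5 to 2732 UMIs per nucleus. Pairs of libraries shared at most 3 cell barcodes. The number 0 libraries stood apart in both regions: chi-square over its degrees of freedom, computed on gene counts, was 4.27 to 7.35 for pairs of a number 0 library with one of numbers 1 to 3, and 1.36 to 1.75 within numbers 1 to 3. In hippocampus unit 0, 12.7% of excitatory nuclei were cortical layer 2-4-like, against 0.398% to 0.571% in the other hippocampus units. Regional results are therefore also given for numbers 1 to 3 alone. Nuclei were clustered without any cadherin or protocadherin gene and the clusters were named from other markers, which held no member. Names of excitatory subtypes were also limited by the region that most nuclei of a cluster came from. Named excitatory neuron-like nuclei made up 67.6% of cortex nuclei and 45.5% of hippocampus nuclei on average over units, astrocyte-like nuclei 2.60% and 11.4%, and oligodendrocyte-like nuclei 0.344% and 5.42%. Unnamed nuclei were 9.90% and 21.9%. Unit 0 carried much of some means: cortical astrocyte-like nuclei were 5.40% of unit 0 and 1.35% to 2.26% of the others, cortical oligodendrocyte-like nuclei 1.24% and at most 0.0725%, and thalamic neuron-like nuclei 5.64% of hippocampus unit 0 and 0.943% to 1.60% of the others. Markers of a class were also counted in other classes. Slc17a7, the vesicular glutamate transporter of excitatory neurons, was at 340.2 CPM (UMIs per 1000000 UMIs of all genes) in excitatory neuron-like and at 193.6 CPM in microglia-like nuclei. Whether free RNA, doublets or mixed clusters gave such counts was not tested, and a low level in a class is not read as expression there.

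Together the members gave 35562 UMIs, and 1611.61 to 1893.5 CPM in a library. By total count, 14 members had at least 1000 UMIs, 37 at least 100 and 52 at least 10. The 14 were Pcdh9 (3698 UMIs), Pcdhga9 (3232), Pcdha2 (2943), Pcdh10 (2204), Pcdh17 (2151), Cdh11 (2133), Cdh10 (1913), Pcdh1 (1684), Cdh8 (1480), Pcdh20 (1196), Cdh7 (1071), Pcdh7 (1069), Cdh9 (1018) and Cdh2 (1006). These are sums of UMIs, not levels per gene length, and they do not rank the genes by expression. Type II cadherins, with 13 genes, held 9703 UMIs. The 24 clustered protocadherin symbols held 8958, the 4 delta-1 protocadherins 6943 and the 5 delta-2 protocadherins 5855. The 3 other solitary protocadherins had 1969 UMIs, the 5 type I cadherins 1468 and the 4 atypical cadherins 666. The members hardly detected were Pcdhb1 with 2 UMIs, Cdh3, the placental cadherin, with 3, Cdh26 with 4, Pcdhb8 with 5, Cdh17 with 6 and Pcdh12 with 8.

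The clustered genes need a caution on what a symbol counts. The GENCODE annotation of this mouse assembly has 13 alpha symbols, and 12 of them share an exon with Pcdha2. It has 22 gamma symbols, and 21 share an exon with Pcdhga9. Counts under Pcdha2 and Pcdhga9 can therefore hold reads of other isoforms of the same cluster, and they are called by these symbols without a claim on the isoform. The beta genes do not share such constant exons. Their 22 symbols had 2783 UMIs in all, with a median of 85 and a maximum of 381 for Pcdhb16, followed by Pcdhb19, Pcdhb21 and Pcdhb20 with 287, 280 and 278.

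The sequences shown next are the 250 bases before the RefSeq start of 4 members on which the results below turn. Cdh9 and Cdh10 lie on chromosome 15 and differed in opposite directions between regions and in granule- and CA1-like nuclei, and Pcdh17 and Pcdh20 lie on chromosome 14 and were both higher in hippocampus. The 4 were chosen after their values were seen. Sequence and start are from RefSeq on GRCm38.p6, 5′ to 3′ on the strand of the gene. They lie at chr15:16728665-16728914 (plus strand, Cdh9), chr15:18820079-18820328 (plus, Cdh10), chr14:84443313-84443562 (plus, Pcdh17) and chr14:88471397-88471646 (minus, Pcdh20). The GENCODE annotation used for gene positions starts Cdh10 earlier, at 18818947, so by it the Cdh10 window lies inside the gene. It starts Cdh9 at 16728756, within the Cdh9 window. Capitals mark CANNTG, the E-box core bound by basic helix-loop-helix factors, which reads the same on both strands.
Cdh9: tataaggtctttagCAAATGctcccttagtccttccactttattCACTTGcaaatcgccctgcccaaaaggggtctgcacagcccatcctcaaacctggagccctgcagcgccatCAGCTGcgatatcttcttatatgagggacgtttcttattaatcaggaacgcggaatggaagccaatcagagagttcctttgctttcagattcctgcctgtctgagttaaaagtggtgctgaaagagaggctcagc
Cdh10: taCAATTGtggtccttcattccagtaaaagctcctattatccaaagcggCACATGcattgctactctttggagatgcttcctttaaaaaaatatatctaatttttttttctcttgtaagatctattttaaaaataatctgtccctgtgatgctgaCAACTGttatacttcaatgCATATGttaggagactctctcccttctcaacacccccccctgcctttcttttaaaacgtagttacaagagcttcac
Pcdh17: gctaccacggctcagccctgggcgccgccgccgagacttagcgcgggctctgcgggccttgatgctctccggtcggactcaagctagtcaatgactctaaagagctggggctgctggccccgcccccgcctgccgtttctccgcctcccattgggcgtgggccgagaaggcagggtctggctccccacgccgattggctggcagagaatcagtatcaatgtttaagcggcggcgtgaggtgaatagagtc
Pcdh20: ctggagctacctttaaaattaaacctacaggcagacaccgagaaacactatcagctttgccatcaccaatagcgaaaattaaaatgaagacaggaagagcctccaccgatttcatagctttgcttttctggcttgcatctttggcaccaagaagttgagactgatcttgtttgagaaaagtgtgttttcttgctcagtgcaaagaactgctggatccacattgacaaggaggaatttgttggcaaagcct
The Cdh9 window held 3 matches and the Cdh10 window 4, and the other windows held none. Of 32851 RefSeq promoter windows of this length 66.2% held at least 1 match, 12.2% at least 3 and 3.84% at least 4, so a match is common. Promoter windows were found for 22 members, as 25 windows, of which 13 held a match. A match is a description of the letters and says nothing of binding.

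The regional question was which members differ in the RNA of hippocampus and cortex as dissected. In summed counts of all nuclei, 38 of the 58 members passed the filter on low counts and 9 differed by edgeR's quasi-likelihood test at a Benjamini-Hochberg adjusted p under 0.05 over all genes, 5 higher and 4 lower in hippocampus. Over all 12855 genes tested 17.7% were called, 9.19% higher and 8.53% lower, and the median log2 difference was -0.01 for the members and -0.01 for all genes. Fold changes below are hippocampus over cortex on the log2 scale with a standard error, and values per unit are CPM for units 0, 1, 2 and 3. The class shares given above move with region, their part in these differences was not tested, and in sums over all nuclei fewer cells of a type and less RNA per cell cannot be told apart.

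Pcdh20, a solitary protocadherin, had the largest regional difference among members. It was at 68.9, 148, 159 and 148 CPM in the hippocampus units and at 12.7, 18.5, 24.7 and 18.4 CPM in the cortex units. The regions did not overlap, and hippocampus unit 0 was the lowest of its region. The log2 difference was 2.82 ± 0.28 (adjusted p = 3.44e-05, edgeR, higher in 4 of 4 units). Pcdh17, a delta-2 protocadherin of presynaptic sites in corticobasal circuits, was at 111, 177, 148 and 186 CPM in hippocampus and 69.4, 92.6, 77.2 and 77.6 CPM in cortex. Its regions also did not overlap, with a difference of 0.96 ± 0.16 (adjusted p = 0.00146, edgeR).

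Among type II cadherins, Cdh9, known for its part in synapses between dentate granule cells and CA3 neurons, was at 55.3, 79.7, 79.0 and 70.8 CPM in hippocampus and 31.1, 39.6, 46.6 and 40.1 CPM in cortex (0.84 ± 0.16, adjusted p = 0.00324, edgeR). Cdh8, a type II cadherin found at synapses, was at 97.5, 88.5, 77.6 and 94.2 CPM against 62.4, 48.4, 59.6 and 63.4 CPM (0.60 ± 0.12, adjusted p = 0.00359, edgeR). For both genes each hippocampus unit lay above each cortex unit. Cdh7 went the other way, with 40.4, 16.9, 22.2 and 17.3 CPM in hippocampus and 65.1, 71.6, 76.8 and 77.6 CPM in cortex (-1.51 ± 0.22, adjusted p = 0.000531, edgeR). Cdh10 was at 94.4, 54.0, 47.1 and 49.6 CPM in hippocampus and 127, 101, 102 and 110 CPM in cortex (-0.82 ± 0.19, adjusted p = 0.00854, edgeR). Neither gene overlapped between regions, and in both the hippocampus unit nearest to cortex was unit 0. With numbers 1 to 3 alone the differences were -2.02 for Cdh7 and -1.06 for Cdh10.

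Pcdh10, a delta-2 protocadherin of axon guidance and of synapse elimination, was at 90.8, 80.3, 56.8 and 70.2 CPM in hippocampus and 105, 149, 153 and 141 CPM in cortex (-0.87 ± 0.15, adjusted p = 0.00189, edgeR), with no overlap. The last 2 calls were less firm. Pcdh7, a delta-1 protocadherin, differed by -0.80 ± 0.23 (adjusted p = 0.0266, edgeR), with hippocampus unit 0 at 52.2 CPM above cortex unit 3 at 48.0 CPM. Its call ended when hippocampus unit 1, 2 or 3 or cortex unit 0 was left out, with adjusted p up to 0.0879. Pcdhb7 differed by 0.81 ± 0.25 (adjusted p = 0.0387, edgeR). Its regions overlapped, and leaving out hippocampus unit 2 or 3 or cortex unit 0, 2 or 3 ended the call (adjusted p up to 0.13).

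Of the tested members that were not called, the 5 with the highest levels were Pcdh9 (0.34 ± 0.29, adjusted p = 0.476), Pcdhga9 (0.19, 0.222), Pcdha2 (-0.22, 0.255), Cdh11 (-0.26, 0.11) and Pcdh1 (-0.04, 0.866), with edgeR's adjusted p given second. Pcdh9 shows how unit 0 bears on such values. It was at 258, 168, 172 and 148 CPM in hippocampus and 267, 110, 91.9 and 114 CPM in cortex, so that unit 0 was the highest in both regions. Among numbers 1 to 3 its regions did not overlap, and the difference was 0.61 ± 0.09 (adjusted p = 1.42e-05, edgeR). With numbers 1 to 3 alone 19 of 38 members were called, against 32.6% of 12674 genes, so calls rose among all genes too. They comprised the 9 named above and Cdh2, Cdh6, Cdh11, Cdh13, Cdh22, Pcdh8, Pcdh9, Pcdh15, Pcdh19 and Pcdha2.

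Within excitatory neuron-like nuclei, 32 members were tested and 12 were called, 6 higher and 6 lower in hippocampus, against 16.2% of 10948 genes (8.75% higher and 7.5% lower). The median over the tested members was -0.06, and -0.00 over all genes. These nuclei are not the same cell types in both regions: dentate granule-like nuclei were 50.3% of hippocampal excitatory nuclei, and no cortical nucleus was so named. Of the called members only Pcdh15 overlapped between regions. The share without overlap among all called genes is not given, and a call itself favours units that are apart. The lack of overlap is therefore a description and no trait of the members.

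Pcdh20 again differed most, at 101, 222, 248 and 234 CPM in hippocampus against 9.87, 16.8, 27.9 and 12.5 CPM in cortex (3.64 ± 0.33, adjusted p = 8.78e-06, edgeR). Cdh9 was at 84.7, 117, 107 and 117 CPM against 29.2, 35.7, 51.1 and 32.7 CPM (1.55 ± 0.19, adjusted p = 9.75e-05). Pcdh17 was at 116, 223, 183 and 225 CPM against 64.0, 84.8, 65.4 and 62.0 CPM (1.46 ± 0.20, adjusted p = 0.000265). In each of the 3 genes the lowest hippocampus unit was unit 0 and still lay above every cortex unit. Pcdh8, also called arcadlin, is a delta-2 protocadherin induced by synaptic activity. It was at 24.2, 35.7, 30.3 and 45.9 CPM against 7.90, 19.5, 19.1 and 17.4 CPM (1.15 ± 0.30, adjusted p = 0.0165), a call that ended without hippocampus unit 1 or 3 (up to 0.0736). Cdh8 differed by 0.93 ± 0.16 (adjusted p = 0.00146), with 112, 129, 95.0 and 137 CPM in hippocampus and 73.4, 49.8, 61.3 and 67.6 CPM in cortex. Pcdhb7 was the only beta gene called among the 8 tested, at 15.9, 12.7, 15.8 and 17.5 CPM against 9.08, 6.73, 8.86 and 7.66 CPM (0.95 ± 0.25, adjusted p = 0.0203). Its call ended without hippocampus unit 2 or 3 or cortex unit 1 or 3 (up to 0.0691).

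The 6 members lower in hippocampal excitatory nuclei came from 5 families. Of the type II cadherins, Cdh7 was at 45.8, 10.2, 17.2 and 12.03 CPM against 71.5, 78.0, 83.1 and 87.1 CPM (-1.72 ± 0.31, adjusted p = 0.00193, edgeR), and Cdh10 at 102, 39.5, 54.1 and 50.3 CPM against 143, 104, 122 and 128 CPM (-0.94 ± 0.22, adjusted p = 0.011). Without number 0 these differences were -2.61 and -1.25. Of the delta protocadherins, Pcdh10 was at 74.5, 43.3, 46.2 and 50.3 CPM against 103, 166, 166 and 134 CPM (-1.33 ± 0.20, adjusted p = 0.000415). The X-linked delta-1 gene Pcdh11x was at 15.3, 6.37, 5.28 and 7.65 CPM against 30.8, 27.6, 21.8 and 16.7 CPM (-1.33 ± 0.32, adjusted p = 0.0108). In all 4 genes hippocampus unit 0 was the highest of its region.

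The type I cadherin Cdh4, or R-cadherin, was at 17.2, 0, 5.28 and 6.56 CPM against 22.5, 24.9, 26.6 and 21.6 CPM (-1.43 ± 0.43, adjusted p = 0.0354, edgeR). Pcdh15, a tip-link protein of hair cells that is also expressed in the brain, was at 35.7, 2.55, 6.60 and 6.56 CPM against 59.6, 36.3, 34.8 and 36.9 CPM (-1.43 ± 0.45, adjusted p = 0.0457). Both calls were near the threshold. That of Cdh4 ended without hippocampus unit 2 or 3 or cortex unit 1, 2 or 3 (up to 0.105), and that of Pcdh15 without any 1 unit other than hippocampus unit 0 (up to 0.138). With numbers 1 to 3 alone they differed by -2.51 and -2.70, and 17 of 31 members were called, against 33.1% of 10592 genes. The members added were Cdh13, Cdh22, Pcdh7, Pcdh9 and Pcdh19, of which Pcdh9 differed by 0.79 ± 0.11 (adjusted p = 2.74e-09) and Pcdh7 by -1.83 ± 0.23 (adjusted p = 3.3e-11). Over all units Pcdh7 had missed the threshold (-1.06, adjusted p = 0.0622).

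**Figure D1:**
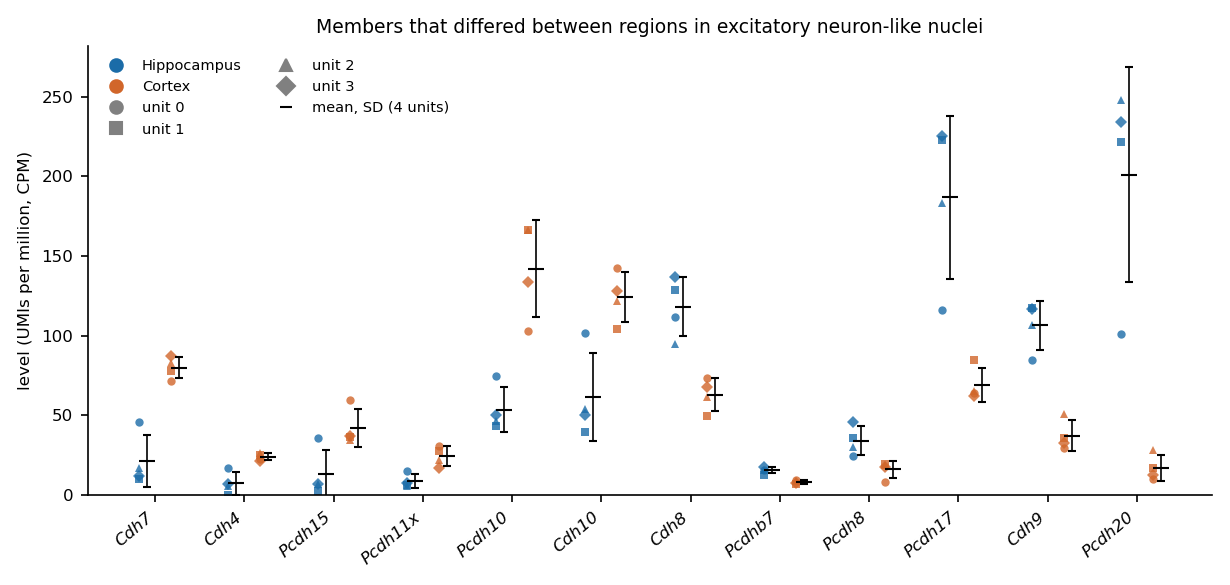
Level (vertical axis, CPM) of the 12 members called between regions in excitatory neuron-like nuclei (horizontal axis), with 4 hippocampus and 4 cortex units as points, the marker giving the unit, and means with SD as bars. Pcdh20 lies between 101 and 248 CPM in hippocampus and between 9.87 and 27.9 CPM in cortex, and hippocampus unit 0 is nearest to cortex for Cdh7, Cdh10 and Pcdh15.

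The catenins and other proteins that bind cadherins were followed as a list beside the members. Of 15 genes 14 were tested in excitatory nuclei, with 2 higher and 5 lower in hippocampus and a median of -0.32, against 16.2% of all genes called (8.75% higher and 7.5% lower). Ctnnd2, delta-catenin, differed by -0.56 ± 0.13 (adjusted p = 0.00918, edgeR), the junction protein Plekha7 by -0.69 ± 0.17 (0.0118), the scaffold Magi1 by -0.48 ± 0.13 (0.0259) and the armadillo protein Pkp4 by 0.76 ± 0.18 (0.00968). Of 20 other cadherin superfamily genes 10 were tested, with 4 higher and 2 lower, to be read against the same share. Among these the giant cadherins Fat4 and Fat3 went opposite ways, by 1.91 ± 0.29 (0.000444) and -0.65 ± 0.18 (0.0222), as did the calsyntenins Clstn2, by 1.39 ± 0.24 (0.00124), and Clstn1, by -0.45 ± 0.10 (0.00794). Of 6 factors known to act at clustered protocadherin promoters 4 were tested and none was called, with 1 at an unadjusted p under 0.05 (Smc3, a cohesin subunit, 0.28 ± 0.12, adjusted p = 0.135) and Ctcf at 0.18 ± 0.14 (0.444).

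In inhibitory neuron-like nuclei no member was called between regions. Of 15 tested, edgeR and DESeq2 each called 0 and 3 had an unadjusted p under 0.05, against 0.595% of 5041 genes called. The depth is lower here, with 43 to 165 nuclei per unit. Pcdh20 was at 51.3, 67.8, 58.0 and 57.4 CPM in hippocampus and 15.4, 15.9, 37.1 and 29.1 CPM in cortex, on few UMIs per unit. The regions did not overlap, and its difference of 1.32 ± 0.46 was not called (adjusted p = 0.279, edgeR). Cdh9 was at 45.6, 67.8, 58.0 and 86.1 CPM against 52.7, 75.4, 55.6 and 116 CPM (-0.18 ± 0.37), and Pcdh17 at 160, 54.2, 92.8 and 95.7 CPM against 136, 91.3, 137 and 187 CPM (-0.28 ± 0.29). The regions overlapped for both.

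Whether a regional difference itself differs between the neuron classes was tested with an interaction term, inhibitory minus excitatory, with the unit as a block. Of 28 members tested 4 were called, 1 higher and 3 lower, against 3.87% of 9906 genes (1.33% higher and 2.53% lower). The interaction was -2.25 ± 0.45 for Pcdh20 (adjusted p = 0.00018, edgeR), -1.75 ± 0.35 for Cdh9 (0.00016) and -1.66 ± 0.28 for Pcdh17 (2.2e-06), so the log2 difference was lower in inhibitory than in excitatory nuclei for all 3. Without the unit block the Pcdh20 call was lost (0.0516). Cdh9 was higher in inhibitory than in excitatory nuclei in 4 of 4 cortex units and in 0 of 4 hippocampus units. For Pcdh17 this held in 4 of 4 cortex units and 1 of 4 hippocampus units, and for Pcdh20 in 3 of 4 and 0 of 4. Pcdh10 had an interaction of 1.01 ± 0.31 (adjusted p = 0.0333). It was higher in inhibitory nuclei in 2 of 4 cortex and 4 of 4 hippocampus units. Its call ended without hippocampus unit 0 or 1 or cortex unit 1 or 2, with adjusted p up to 0.525.

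**Figure D2:**
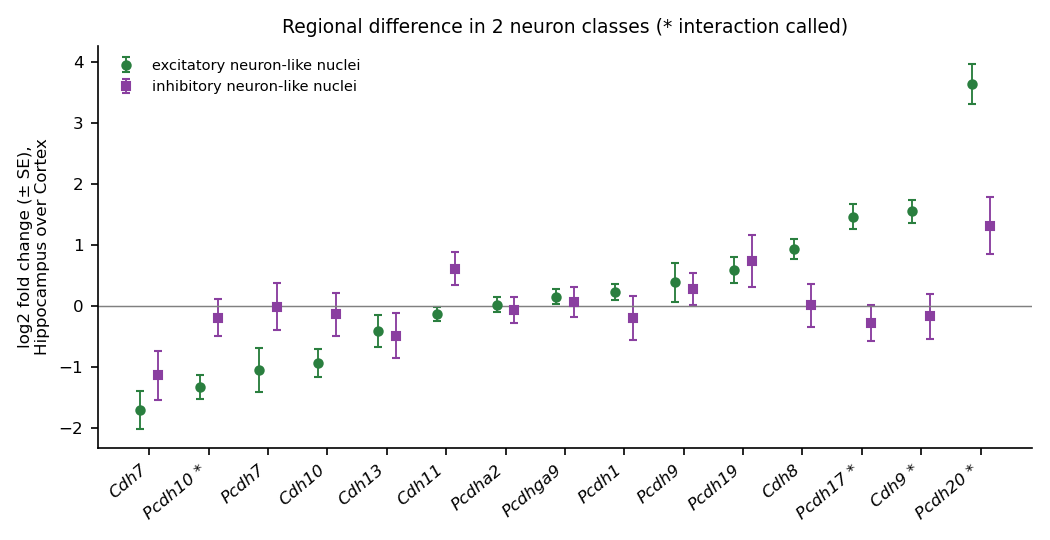
Log2 fold change of hippocampus over cortex with its standard error (vertical axis) for the 15 members tested in both neuron classes (horizontal axis), as circles for excitatory and squares for inhibitory neuron-like nuclei. Pcdh20, Cdh9, Pcdh17 and Pcdh10, marked with an asterisk, are those with a called interaction. Cdh9 is at 1.55 in excitatory and -0.18 in inhibitory nuclei.

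Outside neurons the regions were compared in astrocyte-like and endothelial-like nuclei. In astrocyte-like nuclei edgeR and DESeq2 called 0 of 7, with 1 at an unadjusted p under 0.05, against 2.92% of 2878 genes, and the cortex had 3 units there because 1 held fewer than 20 nuclei. That 1 was Pcdh17, at 0.84 ± 0.35 (adjusted p = 0.219). In endothelial-like nuclei both tools called 0 of 4, with 0 at an unadjusted p under 0.05, against 3.6% of 2970 genes. Cdh5, which encodes VE-cadherin of endothelial junctions, differed by 0.14 ± 0.25.

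Within hippocampal excitatory nuclei, 12 members had counts enough to be compared between dentate granule-like, CA3-like and CA1-like nuclei, each against the mean of the other 2 with the unit as a block. Nuclei without a subtype name, 19.9% of hippocampal excitatory nuclei on average over units, were left out. In granule-like nuclei 10 of the 12 were called, 7 higher and 3 lower, against 33.2% of 4528 genes (16.4% higher and 16.9% lower). In CA1-like nuclei 2 were higher and 4 lower, against 17.5% of genes (9.72% and 7.75%), and in CA3-like nuclei 2 were higher and 3 lower, against 21.6% (11.4% and 10.2%). The promoters printed above belong to 4 of these members.

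Cdh9 was high in granule-like nuclei, at 203, 211, 177 and 201 CPM, and in CA3-like nuclei, at 205, 77.7, 151 and 120 CPM. In CA1-like nuclei it was at 0, 18.8, 5.87 and 14.7 CPM, on 7 UMIs in all and below every value of the other 2 subtypes. The log2 differences were 2.19 ± 0.23 for granule (adjusted p = 7.9e-15, edgeR), 1.63 ± 0.29 for CA3 (1.71e-06, higher in 3 of 4 units) and -3.82 ± 0.36 for CA1 (4.32e-17). Cdh10 had the reverse order. It was at 12.4, 11.9, 12.7 and 4.97 CPM in granule-like, 54.2, 42.4, 75.5 and 56.9 CPM in CA3-like and 111, 69.0, 93.9 and 118 CPM in CA1-like nuclei. Granule-like nuclei lay below both other subtypes without overlap (-2.91 ± 0.38, adjusted p = 8.49e-11, edgeR), and CA1-like nuclei were higher (2.01 ± 0.33). Cdh10 passed the filter on low counts mainly through the CA1-like sums, so a p-value for CA1 is not given as support. The 2 genes start 2.09 Mb apart on chromosome 15, with Cdh9 at 16728756 to 16857094 and Cdh10 at 18818947 to 19014236, both on the plus strand in the GENCODE annotation.

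Pcdh17 was highest in granule-like nuclei, at 225, 360, 336 and 346 CPM, and lowest in CA3-like nuclei, at 36.1, 14.1, 27.5 and 63.2 CPM. CA1-like nuclei, at 83.3, 144, 64.5 and 133 CPM, were between them. The differences were 2.23 ± 0.17 for granule (adjusted p = 4.98e-23, edgeR) and -2.23 ± 0.28 for CA3 (1.64e-11). Pcdh20 was present in all 3 subtypes, at 258, 336, 336 and 341 CPM in granule-like, 157, 163, 316 and 259 CPM in CA3-like and 120, 188, 176 and 142 CPM in CA1-like nuclei. Granule-like nuclei were higher by 0.66 ± 0.14 (adjusted p = 2.32e-05) and CA1-like nuclei lower by -0.75 ± 0.17 (0.000268). In the 3 cortical subtypes the unit values of Pcdh20 stayed below those in each hippocampal subtype, as the plot of levels by subtype shows.

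Pcdh8 was also highest in granule-like nuclei, at 66.9, 65.5, 63.3 and 69.6 CPM, against 18.1, 21.2, 6.87 and 56.9 CPM in CA3-like and 9.25, 12.5, 0 and 14.7 CPM in CA1-like nuclei. Granule-like nuclei did not overlap with the others (1.97 ± 0.38). Pcdh8 passed the filter on low counts through these granule-like sums, so neither a p-value nor the lack of overlap is given as support. The lower level in CA1-like nuclei (-2.10 ± 0.57, adjusted p = 0.00304, edgeR) was no longer called without hippocampus unit 3 (0.0681). That contrast also includes the granule-like sums. Cdh11, a type II cadherin also known from mesenchyme, showed the opposite pattern, at 86.7, 74.4, 66.5 and 52.2 CPM in granule-like, 205, 155, 124 and 158 CPM in CA3-like and 167, 113, 153 and 177 CPM in CA1-like nuclei. Granule-like nuclei were below both pyramidal subtypes in every unit (-1.30 ± 0.18, 1.6e-09) and CA3-like nuclei were higher (0.71 ± 0.19, 0.00308). The higher level in CA1-like nuclei (0.58 ± 0.20, 0.0221) was lost without hippocampus unit 2 or 3 (up to 0.274).

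Pcdhga9 was at 164, 170, 203 and 189 CPM in granule-like nuclei and at 90.3, 70.6, 34.3 and 37.9 CPM in CA3-like nuclei, with 157, 87.8, 147 and 123 CPM in CA1-like nuclei. Granule-like nuclei were higher (0.95 ± 0.18, adjusted p = 4.88e-06, edgeR) and CA3-like nuclei lower (-1.27 ± 0.25, 1.71e-05). Pcdh19, an X-linked delta-2 gene mutated in an epilepsy of females, was also lower in CA3-like nuclei (-1.60 ± 0.40, 0.00102). Its granule call (0.80 ± 0.29, 0.0247) ended without hippocampus unit 1 (0.168). Cdh8 was higher in granule-like nuclei (0.75 ± 0.18, 0.000248). For Pcdh1 the granule call (-0.58 ± 0.20, 0.0149) ended without hippocampus unit 3 (0.265), and for Pcdh9 the CA1 call (-0.66 ± 0.20, 0.00951) ended without hippocampus unit 1, 2 or 3 (up to 0.146).

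In cortical excitatory nuclei the same 3-way comparison was made for layer 2-4-like, layer 5-like and layer 6-like nuclei. Nuclei without a subtype name, 46.8% of cortical excitatory nuclei on average over units, were left out, so the 3 groups do not cover all of them. Again 12 members were tested. Of these 2 were higher and 4 lower in layer 2-4-like nuclei, against 22.2% of 5203 genes (11.9% higher and 10.3% lower). In layer 5-like nuclei 3 were higher and 1 lower, against 13.4% (6.78% and 6.59%), and in layer 6-like nuclei 4 were higher and 3 lower, against 12.9% (7.02% and 5.84%). The name layer 2-4-like is that of the marker list. The clusters so named had Otof, Cux2 and Rasgrf2 among their top genes. Clusters of 733 and 465 excitatory nuclei with Rorb, another marker of that list, among their top genes stayed unnamed. Layer 4 nuclei can therefore be missing from the layer 2-4-like group. Cdh7 was highest in layer 2-4-like and lowest in layer 6-like nuclei. It was at 111, 121, 133 and 149 CPM in layer 2-4-like, 91.8, 93.8, 92.0 and 75.5 CPM in layer 5-like and 17.6, 43.5, 17.96 and 12.8 CPM in layer 6-like nuclei (2 to 7 UMIs per unit), with no overlap between the 3. The differences were 1.48 ± 0.21 for layer 2-4 (adjusted p = 7.31e-11, edgeR) and -2.20 ± 0.32 for layer 6 (7.61e-10).

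Cdh8 was highest in layer 5-like nuclei, at 108, 98.7, 125 and 130 CPM, against 62.5, 44.8, 57.2 and 46.5 CPM in layer 2-4-like and 26.4, 18.6, 26.9 and 63.8 CPM in layer 6-like nuclei. Layer 5-like nuclei lay above both without overlap (1.45 ± 0.25, adjusted p = 3.2e-07, edgeR). The lower layer 6 level (-1.25 ± 0.30, 0.000854) missed the threshold without cortex unit 0 (0.0506). Pcdh17 was lowest in layer 2-4-like nuclei, at 53.6, 35.9, 38.8 and 46.5 CPM, with 140, 183, 86.6 and 82.4 CPM in layer 5-like and 70.4, 174, 117 and 89.4 CPM in layer 6-like nuclei. Layer 2-4-like nuclei did not overlap with the deeper layers (-1.33 ± 0.20, 6.5e-10). The higher level in layer 5-like nuclei (0.84 ± 0.21, 0.0012) was not called without cortex unit 1 (0.0603).

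Pcdh9, a delta-1 protocadherin, was high in layer 6-like nuclei, at 559, 149, 162 and 204 CPM, against 217, 82.9, 67.4 and 67.4 CPM in layer 2-4-like and 200, 49.4, 81.2 and 48.0 CPM in layer 5-like nuclei. Unit 0 was the highest in each layer, and within every unit layer 6 was the highest (1.39 ± 0.16, adjusted p = 2.86e-15, edgeR). Its layer 2-4 call (-0.56 ± 0.15, 0.0016) ended without cortex unit 0 (0.124), and that for layer 5 (-0.82 ± 0.19, 0.000325) with doubled cluster resolution or without the unit block (up to 0.92). Pcdh10 and Pcdhga9 were also higher in layer 6-like nuclei, by 0.70 ± 0.17 (0.00102) and 0.71 ± 0.18 (0.00128). Both calls ended with doubled cluster resolution (0.494 and 0.223), and that of Pcdh10 also without the unit block. Cdh13, the T-cadherin anchored by a lipid tail, was lower in layer 2-4-like nuclei (-1.18 ± 0.31, 0.00107). Its layer 5 call (1.15 ± 0.32, 0.00453) ended without cortex unit 0 (0.0708). Cdh11 was lower in layer 2-4-like nuclei (-0.86 ± 0.16, 8.45e-07), and its layer 6 call (0.71 ± 0.18, 0.00104) ended without cortex unit 0 (0.139). For Cdh10 the layer 6 call (-1.12 ± 0.26, 0.000466) ended without cortex unit 0 (0.0575) and the layer 2-4 call (0.55 ± 0.19, 0.0213) without cortex unit 0, 1 or 2 (up to 0.271).

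**Figure D3:**
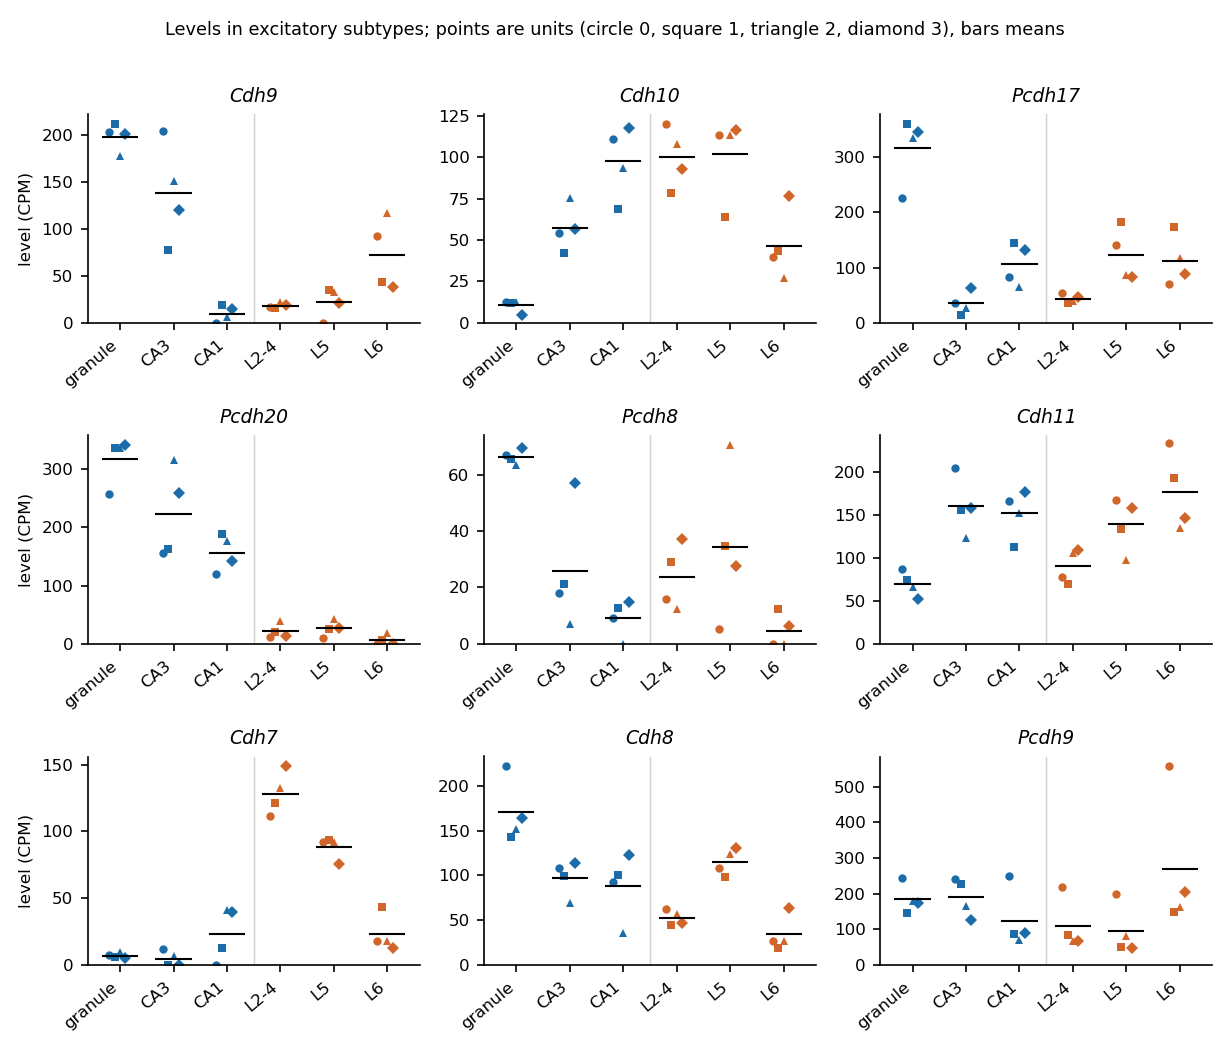
Level in CPM (vertical axis) of 9 members in 3 hippocampal (blue, left of the line) and 3 cortical (orange, right of the line) excitatory subtypes, with units as points and means as bars. Cdh9 runs from 0 to 18.8 CPM in CA1-like nuclei and from 177 to 211 CPM in granule-like nuclei, whereas Cdh10 runs from 69.0 to 118 CPM and from 4.97 to 12.7 CPM.

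Across the major classes, 15 members could be compared, each class against the mean of the other classes with the unit as a block. The filter on low counts keeps a gene with enough counts in a few sums, whichever class they belong to. A member can thus be tested only because it is high in a class, and its p-value there is then no separate support. How many members entered so was not counted, so the p-values of the class fits are not read as support on their own. The region and subtype fits use the same filter. The classes compared were excitatory, inhibitory and thalamic neuron-like nuclei, astrocyte-, oligodendrocyte-, oligodendrocyte precursor-, microglia-, endothelial- and meningeal fibroblast-like nuclei. The share of all 5706 genes called was large in some of these contrasts, and each count of members is given beside it. Scaling matters here: size factors from DESeq2's method moved the median of all genes from -0.07 to 0.26 in endothelial-like, from 0.05 to -0.13 in excitatory and from 0.02 to -0.09 in inhibitory neuron-like nuclei. The share of calls that were higher moved from 49.9% to 63.7%, from 59.4% to 40.5% and from 58.1% to 42.2% in these 3 classes, and from 76.3% to 65.3% in microglia-like nuclei. Of the member calls in the class, region and subtype comparisons, 3 ended under that scaling and none changed sign.

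The gamma symbol Pcdhga9 and the alpha symbol Pcdha2 divided neurons from astrocytes in opposite directions. Pcdhga9 was at 453, 415, 477 and 400 CPM in hippocampal and 330, 501, 632 and 479 CPM in cortical astrocyte-like nuclei. In excitatory neuron-like nuclei it was at 130, 127, 160 and 138 CPM and 118, 129, 122 and 141 CPM, with no overlap. It was higher in astrocyte-like nuclei than in the mean of the other classes (1.47 ± 0.13, adjusted p = 3.6e-19, edgeR, 8 of 8 units) and lower in excitatory (-0.55 ± 0.11, 1.86e-05) and inhibitory (-0.47 ± 0.14, 0.00677) neuron-like nuclei. The inhibitory call ended without hippocampus unit 0 (0.186), and the excitatory call without the filter on low counts (0.0683).

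Pcdha2 was at 205.3, 257.5, 220.4 and 277.5 CPM in hippocampal and 206.3, 262, 285 and 287 CPM in cortical inhibitory neuron-like nuclei. In astrocyte-like nuclei it was at 49.5, 27.6, 61.8 and 60.8 CPM and 50.2, 88.4, 30.1 and 76.3 CPM, again with no overlap. It was higher in inhibitory (1.22 ± 0.15, adjusted p = 3.98e-11, edgeR) and excitatory neuron-like nuclei (0.57 ± 0.13, 8.72e-05, 6 of 8 units) and lower in astrocyte-like (-1.05 ± 0.24, 0.000222) and endothelial-like nuclei (-1.25 ± 0.23, 7.94e-07). Between regions neither symbol was called within excitatory nuclei, where Pcdha2 differed by 0.01 ± 0.12 and Pcdhga9 by 0.15.

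In excitatory neuron-like nuclei 8 members were higher and 1 lower, against 50.9% of all genes (30.2% higher and 20.7% lower). Cdh9 (1.42 ± 0.21, adjusted p = 6.73e-09, edgeR), Pcdh20 (1.21 ± 0.19, 5.4e-08) and Cdh8 (0.99 ± 0.16, 1.86e-07) had the largest differences. The first 2 were higher in 6 and 5 of 8 units, and Cdh8 in 8 of 8. In cortex, inhibitory nuclei were above excitatory nuclei in 4 of 4 units for Cdh9 and in 3 of 4 for Pcdh20. In hippocampus this held in 0 of 4 units for both genes. Pcdh1, a delta-1 protocadherin of epithelium and brain, was higher by 0.64 ± 0.15 (0.000149, 6 of 8 units) and Cdh11 by 0.49 ± 0.14 (0.00211), a call that DESeq2 did not make (0.0691). The smaller differences of Cdh10 and Pcdh17, both 0.39, were not called under the other scaling. They also ended without hippocampus unit 2 or cortex unit 2 or 3 (Cdh10, up to 0.148) and without hippocampus unit 1, 2 or 3 (Pcdh17, up to 0.181).

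In inhibitory neuron-like nuclei 4 members were higher and 1 lower, against 31.7% of genes (18.4% higher and 13.3% lower). Beside Pcdha2, Cdh9 was higher by 1.60 ± 0.27 (adjusted p = 9.5e-07, edgeR, 8 of 8 units). The call of Pcdh17 (0.67 ± 0.19, 0.00353, 5 of 8 units) ended without cortex unit 3 (0.0598). That of Cdh11 (0.50 ± 0.18, 0.0258) ended under the other scaling and without hippocampus unit 0 or 3 or cortex unit 3 (up to 0.147). Clusters of inhibitory nuclei differed in member levels, given as a description. The cluster led by Sst and Pvalb (546 nuclei, 8 units) and the one led by Vip and Adarb2 (268 nuclei, 7 units) had mean levels of 105 and 173 CPM for Cdh11, 84.3 and 48.5 CPM for Cdh9, 73.7 and 40.8 CPM for Cdh13, 71.4 and 26.0 CPM for Pcdh19 and 27.5 and 59.9 CPM for Pcdh8. The ranges over units overlapped for each of these 5 genes.

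In astrocyte-like nuclei 4 members were higher and 1 lower, against 33.3% of genes (19.9% higher and 13.4% lower). Beside Pcdhga9, the type I cadherin Cdh2, or N-cadherin, was at 124, 166, 106 and 148 CPM in hippocampus and 86.1, 118, 30.1 and 131 CPM in cortex, the lowest being a unit of 19 nuclei. Cdh2 was higher by 1.45 ± 0.22 (7 of 8 units). Its astrocyte-like sums alone were enough to pass the filter on low counts, so its p-value is not given as support. Pcdh10 and Pcdh17 were higher by 0.77 ± 0.21 (adjusted p = 0.00189, edgeR, 6 of 8 units) and 0.77 ± 0.22 (0.00269, 7 of 8 units). The Pcdh10 call ended with halved cluster resolution or without the unit block (up to 0.122).

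In the oligodendrocyte lineage Pcdh9 and Pcdh15 had the largest increases. In oligodendrocyte-like nuclei, 1 member was higher and 1 lower, against 23% of genes (12.9% higher and 10.1% lower). Pcdh9 was at 767, 642, 711 and 510 CPM in the 4 hippocampus units and at 1210 CPM in cortex unit 0, the only cortex unit with enough of these nuclei. It was higher by 2.26 ± 0.17 (adjusted p = 1.08e-22, edgeR, 5 of 5 units). Pcdh1 had 0 to 2 UMIs per unit and was lower (-2.85 ± 0.61, 9.42e-05), a call not made with numbers 1 to 3 alone (0.332). In oligodendrocyte precursor-like nuclei 2 members were higher, against 5.71% of genes, 3.77% being higher. The 12 oligodendrocyte markers summed to 1135 to 8930 CPM per unit in these nuclei, with at most 7 at 0, against 1806 to 8413 CPM for the 9 precursor markers, and their part in the calls was not tested. Pcdh15 was at 336, 643, 215 and 589 CPM in hippocampus and 242, 104, 34.8 and 139 CPM in cortex. All hippocampus units but unit 2 lay above all cortex units, on 1 to 29 UMIs per unit, and the regional difference was not tested in this class. Against the other classes Pcdh15 was higher by 2.89 ± 0.33 (8 of 8 units). Its precursor-like sums alone were enough to pass the filter on low counts, so its p-value is not given as support. The call of Cdh10 (0.89 ± 0.28, 0.0354) ended without hippocampus unit 1 or cortex unit 0 or 1 (up to 0.22).

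Endothelial-like nuclei differed from the other classes in 12 members, 3 higher and 9 lower, against 71.7% of genes (35.8% higher and 35.9% lower). Cdh5 was at 242, 147, 207 and 304 CPM in hippocampus and 230, 233, 191 and 153 CPM in cortex, with a mean of 213 CPM against 32.5 CPM in fibroblast-like nuclei, the next class (6.32 ± 0.27). It passed the filter on low counts through these endothelial sums, so its p-value is not given as support. Pcdh19 and Pcdh1 were higher by 1.63 ± 0.22 (adjusted p = 1.38e-10, edgeR) and 1.28 ± 0.19 (3.05e-09), each in 8 of 8 units. Pcdh1 was at 180, 161, 129 and 93.6 CPM in hippocampus and 116, 144, 111 and 89.7 CPM in cortex. The 9 lower members were Pcdh9 (-2.02), Cdh10 (-1.83), Pcdh15 (-1.71), Cdh8 (-1.63), Cdh9 (-1.47), Pcdh10 (-1.38), Pcdh17 (-1.26), Pcdha2 (-1.25) and Cdh11 (-0.93). The clusters named endothelial-like also held pericyte and smooth muscle markers: the 8 mural markers summed to 5769 to 10378 CPM per unit, with at most 1 at 0, beside 15831 to 21098 CPM for the 10 endothelial markers. The part of mural nuclei in these levels was not tested.

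In microglia-like and meningeal fibroblast-like nuclei neither edgeR nor DESeq2 called a member, with 2 and 3 of 15 at an unadjusted p under 0.05, against 7.47% and 3.59% of genes. Both classes carried markers of others. In microglia-like nuclei the 12 oligodendrocyte markers summed to 1746 to 11046 CPM per unit, with at most 1 at 0, against 632 to 3805 CPM for the 11 microglial markers. In fibroblast-like nuclei the 12 astrocyte markers summed to 3407 to 7487 CPM, with at most 5 at 0, against 968 to 6928 CPM for the 10 fibroblast markers. Their part in the member levels was not tested.

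**Figure D4:**
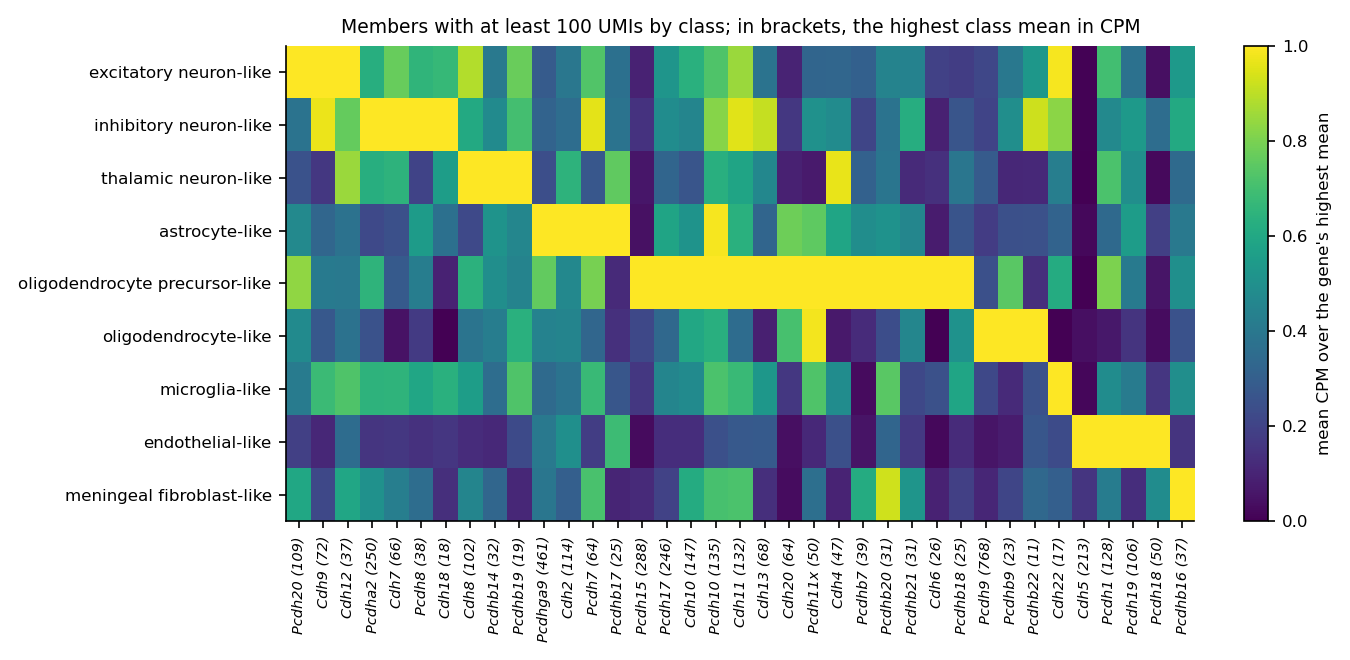
Mean level over units of the 37 members with at least 100 UMIs (horizontal axis, with the highest class mean in CPM in brackets) in 9 classes (vertical axis), as a share of the highest class mean of each gene (colour). Pcdhga9 (461 CPM) and Cdh2 (114 CPM) peak in astrocyte-like, Pcdh9 (768 CPM) in oligodendrocyte-like, Pcdh15 (288 CPM) in oligodendrocyte precursor-like and Cdh5 (213 CPM) in endothelial-like nuclei.

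**Figure D5:**
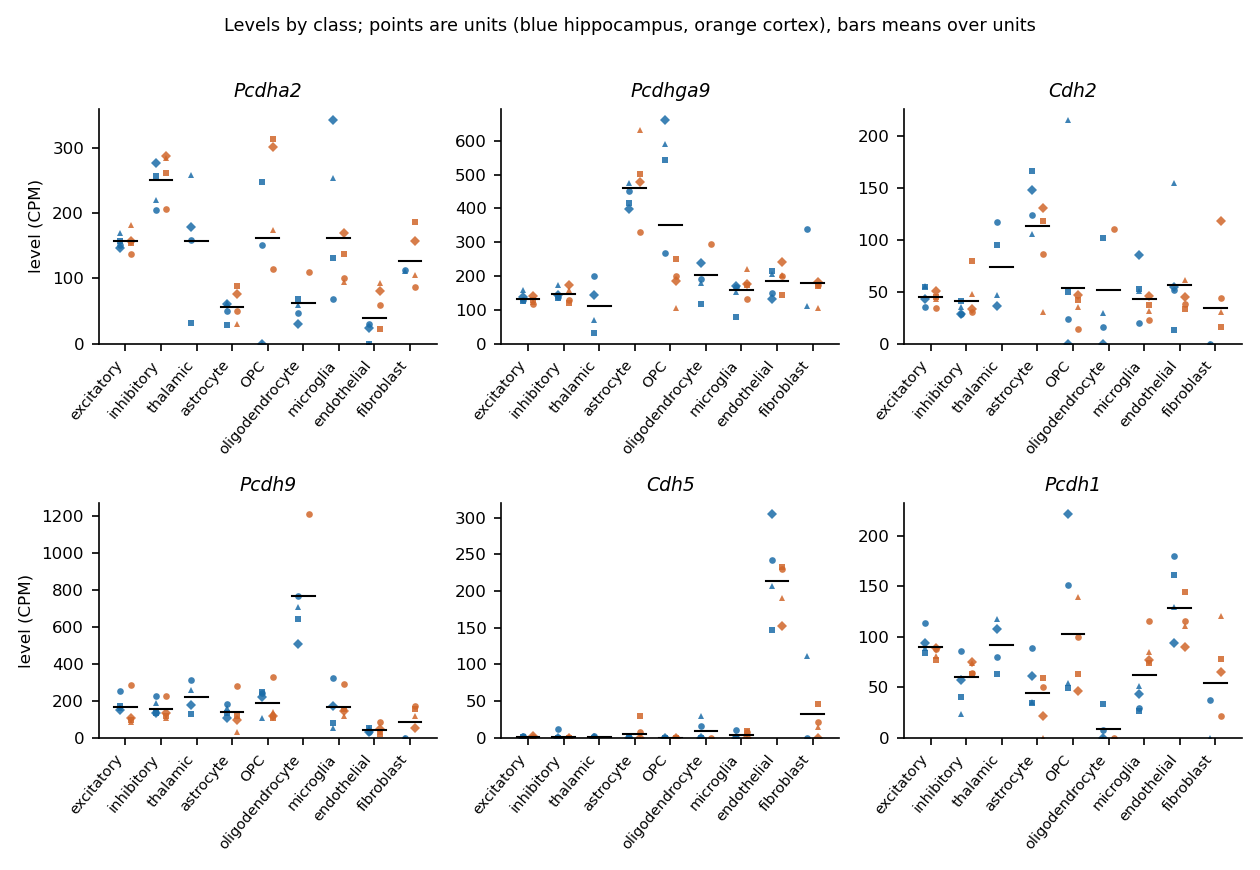
Level in CPM (vertical axis) of 6 members by class (horizontal axis), with hippocampus units in blue, cortex units in orange and means as bars. Cdh5 is at 147 to 304 CPM in endothelial-like nuclei, and Pcdhga9 is at 330 to 632 CPM in astrocyte-like nuclei, above all units of excitatory neuron-like nuclei.

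Some members did not pass the filter on low counts, which asks for counts in enough of the 63 class sums, and were tested only when no filter was applied. Those fits called 13.5%, 6.62%, 1.89%, 32.1% and 1.8% of 22643 genes for the astrocyte, oligodendrocyte, precursor, endothelial and fibroblast classes. There Cdh19, a type II cadherin of glia, was higher in astrocyte-like (3.71 ± 0.44, adjusted p = 2.24e-15, edgeR) and oligodendrocyte-like nuclei (3.25 ± 0.71, 0.000182), at mean levels of 46.6 and 40.3 CPM. Cdh20 was higher in both of these classes (2.63 ± 0.32, 7.5e-15, and 2.19 ± 0.51, 0.000534) and in oligodendrocyte precursor-like nuclei (2.12 ± 0.47, 0.00113). The delta-2 gene Pcdh18 was higher in endothelial-like nuclei (2.83 ± 0.34, 2.97e-15), where it averaged 50.2 CPM. Pcdh12, a vascular protocadherin, was called there too (2.98 ± 0.97, 0.00795) on no more than its 8 UMIs. Cdh1, or E-cadherin, was called in fibroblast-like nuclei (4.75 ± 1.14, 0.00289) on 0 to 2 UMIs per unit.

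The unfiltered fits also called Cdh13 (1.63 ± 0.25, adjusted p = 6.48e-09, edgeR), Pcdh8 (1.69 ± 0.28, 1.67e-07) and Cdh7 (1.36 ± 0.24, 9.57e-07) in inhibitory and Cdh7 (1.18 ± 0.20, 2.77e-08) and Cdh12 (1.17 ± 0.19, 1.8e-08) in excitatory neuron-like nuclei. Between regions Cdh24, a type II cadherin, was higher in hippocampus (2.22 ± 0.59, 0.00621), with 27, 4, 5 and 4 UMIs in the hippocampus units and 7, 0, 2 and 1 in the cortex units. In CA3-like nuclei it had 16, 1, 0 and 3 UMIs (4.73 ± 0.97, 6.03e-05), most of them from unit 0. Cdh23, the tip-link partner of Pcdh15, had 5, 6, 5 and 4 UMIs in hippocampus and 3, 1, 1 and 0 in cortex (2.38 ± 0.73, 0.0221). Fitted fold changes on such counts depend on the prior count and are no bound.

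Several members that differed between regions lie near each other, which is given as a description. On chromosome 14, Pcdh8 (79766775 to 79771312, minus strand), Pcdh17 (84443563 to 84539002, plus), Pcdh20 (88464743 to 88471396, minus) and Pcdh9 (93013410 to 93890679, minus) span 14.1 Mb of GRCm38. In excitatory nuclei Pcdh8, Pcdh17 and Pcdh20 were called higher in hippocampus over all units and Pcdh9 with numbers 1 to 3 alone. In dentate granule-like nuclei the first 3 were again called higher than in the mean of CA3- and CA1-like nuclei, and Pcdh9 was not called. On chromosome 15, Cdh9 and Cdh10 differed in opposite directions in both comparisons.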

How the data were processed

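The table deposited by the authors holds counts of UMIs per gene and nucleus, whole numbers with different totals per nucleus, and the notes of the submitters name STAR, Seurat and the build mm10. How UMIs were collapsed, whether introns or strand were used and how nuclei were chosen was not given in those notes or in the labels. A set of 1689 columns whose name matches no label was not used. The members and lists were chosen with earlier results of these data known. Every member past the test could be named, with the 5 highest that did not pass and up to 4 genes per other list.

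Nuclei were scaled to 10000, clustered in scanpy 1.11.5 with leidenalg 0.10.2 (2000 variable genes without members, 40 components, 20 neighbours, resolution 2) and named from at least 3 markers, so the names are rebuilt here and can depart from the authors' own. Excitatory nuclei were clustered again for subtypes. There a cluster of mostly cortical nuclei could take only a cortical subtype name, and any other cluster only a hippocampal one. Doublets, scored per library against simulated pairs (1035 nuclei, 8.90%), were kept and removed in an alternative. Sums of UMIs for each class of a unit, made from a minimum of 20 nuclei for regions and 10 for classes and subtypes, were tested with edgeR 4.0.16 in R 4.3.3 (TMM, filterByExpr, quasi-likelihood, Benjamini-Hochberg over all genes). CPM scales a sum to 1000000 UMIs of all genes, and fold changes use TMM factors, 0.817 to 1.71 in the class fit. Alternatives were DESeq2 1.42.0 and its size factors, no filter, numbers 1 to 3, each unit left out, a block by title number, other resolutions, members among the clustering genes, libraries 0a and 0b apart, 700 UMIs per nucleus and genes 3 times higher in all nuclei left out. The tests were run on simulated data first. Positions are from GENCODE and promoters from RefSeq, both on GRCm38.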

Additional observations from a re-analysis of the deposited data

Results flagged for a closer look

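In 17 of 126 groups of 4 units for called members, 1 unit lay far from the other 3, and in 10 of these it was unit 0. Chance gives such a unit in about 1 in 20 groups. Levels on few UMIs move in steps of 1 UMI, so this rate need not hold for them. In all nuclei of hippocampus, unit 0 was the highest for Cdh10 (94.4 CPM, the others 47.1 to 54.0) and Pcdh7 (52.2, the others 26.3 to 29.0) and the lowest for Pcdh20 (68.9, the others 148 to 159). In excitatory neuron-like nuclei, unit 0 was the highest for Pcdh15 in hippocampus (35.7 CPM, the others 2.55 to 6.60) and in cortex (59.6, the others 34.8 to 36.9). Cortex unit 1 was the highest there for Pcdh17 (84.8, the others 62.0 to 65.4).

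Pcdh9 was far higher in unit 0 in CA1-like (249.8 CPM, the others 70.4 to 88.4), layer 2-4-like (217, the others 67.4 to 82.9) and layer 6-like nuclei (559, the others 149 to 204). Granule-like nuclei of unit 0 were the lowest for Pcdh10 (12.4 CPM, the others 38.0 to 42.3) and Pcdh20 (258, the others 336 to 341). Unit 3 was the lowest for Cdh10 in granule-like nuclei (4.97, the others 11.9 to 12.7) and the highest for Cdh13 in CA3-like (12.6, the others 6.02 to 7.06) and Pcdh1 in CA1-like nuclei (142, the others 74.0 to 82.1). The Cdh10 and Cdh13 values here rest on few UMIs per unit. In layer 5-like nuclei Cdh10 was lowest in unit 1 (64.2, the others 113 to 117) and Cdh7 in unit 3 (75.5, the others 91.8 to 93.8). In layer 6-like nuclei Cdh7 was highest in unit 1 (43.5, the others 12.8 to 17.96).

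The regional difference differed between inhibitory and excitatory neuron-like nuclei, by the interaction term of edgeR, for Pcdh20 (-2.25), Cdh9 (-1.75), Pcdh17 (-1.66) and Pcdh10 (1.01). Without hippocampus unit 0 the Pcdh10 value was 0.61 (adjusted p = 0.525, edgeR).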

How the results depend on the processing

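Of 98 called member results 65 kept their direction and call in every alternative that could be run, 25 lost the call when at least 1 unit was left out, 30 under at least 1 other alternative, and none reversed. DESeq2 ended 17 of 98, numbers 1 to 3 alone 11 of 92, removal of doublet calls 6 of 83 and no filter 8 of 98. Leaving out 1 unit gave 8 to 14 called members in all nuclei, 2 to 5 for the inhibitory class, 0 to 1 for fibroblast-like, 1 to 2 for precursor-like and 3 to 6 for CA1-like nuclei. Without the filter 1 of 47 was called between regions in endothelial-like nuclei, against 1.53% of all genes. Of 57 tested, 21, 10, 9 and 4 were called for the excitatory, inhibitory, astrocyte and oligodendrocyte classes, against 28.3%, 11.5%, 13.5% and 6.62%. For the precursor, endothelial and fibroblast classes the counts were 4, 22 and 1, against 1.89%, 32.1% and 1.8%. Of 52 tested, 11, 7 and 12 were called for layers 2-4, 5 and 6, against 7.93%, 3.69% and 3.71%. Those fits test members that the filter removed. Numbers 1 to 3 gave 19 in all nuclei, against 32.6% of all genes. Of 13 tested they gave 2, 1 and 1 for the inhibitory, oligodendrocyte and precursor classes, against 21%, 17.2% and 3.48%. Without doublet calls only 8 members were tested in the class fit, against 15, and 5 were called for the excitatory, 3 for the inhibitory, 1 for the oligodendrocyte, 7 for the endothelial and 1 for the fibroblast class. Halved resolution gave 1 and 3 between regions in inhibitory and astrocyte nuclei, 9 and 1 for the inhibitory and oligodendrocyte classes and 8 for the interaction, and no subtypes to compare. Doubled resolution gave 8, 0 and 2 for CA3, layer 5 and layer 6. With at least 20 nuclei 1 was called for microglia-like nuclei. The cause of the other changes was not tested. For fits with a unit left out, without doublet calls, at other resolutions or with at least 20 nuclei, the share of all genes called is not given. Their counts show how calls depend on the setting and are no result about the members.

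Title numbers pair no mice in the labels, and same-numbered units deviated together with correlations of 0.43, 0.097, 0.017 and 0.029. With a replicate block all 21 called regional results kept their call, and 16 members were called in all nuclei. The share of all genes called with that block is not given, so the added calls are no result about the members. In the fits that block by unit, leaving out the replicate block gave 1 call for precursor-like nuclei and 2 for the interaction, those of Cdh9 and Pcdh17. Depth limits the small classes: 63 class sums held 11 to 1150 nuclei, and the astrocyte, endothelial and inhibitory regional fits tested 7, 4 and 15 members.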
